A study of Mus musculus with 4 samples.

Results

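The 116 genes described here are those with solute carrier symbols listed for mouse liver outside the mitochondrial Slc25 family. They were chosen by symbol (Slc or Slco followed by a number, leaving out symbols that start with Slc25a), and they are 116 of the 7000 genes in the deposited RNA-Seq results. Of these 116 genes, 2 are no carriers, and values given for the carriers as a whole include them. Liver RNA came from 4 male wild-type FVB/N mice that were put at weaning on a Se-deficient diet, supplemented as sodium selenite with 0 ppm Se (0 Se, 2 mice) or 0.1 ppm Se (0.1 Se, 2 mice), for 6 weeks. Ribosomal RNA was removed before sequencing. The value used for each gene is the authors' mean over the 4 libraries in CPM, the number of reads of a gene scaled to a common library total, so it pools both diets. It carries no value for a single mouse, and therefore no error, no order between close levels and no difference between the diets can be given. The question of the study, how dietary Se alters liver mRNAs, is not addressed by these means. The values give the levels of the carriers in liver over both diets. Levels are compared between genes as CPM per kilobase of mRNA.

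Solute carriers are membrane proteins that move small molecules down a gradient or couple their movement to that of an ion. Hepatocytes use them on the sinusoidal side to take up amino acids, sugars, bile acids, drugs and metals from blood, and on the canalicular side to pass organic cations to bile. Others serve the endoplasmic reticulum, the Golgi apparatus, lysosomes and vesicles. The symbols group proteins by sequence, so that a family may hold carriers of unlike substrates and a few named members that carry nothing.

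The carriers spanned a wide range of levels. The median was 6.45 CPM per kilobase, beside 6.19 for all 7000 listed genes, and the quartiles were 1.57 and 21.6, beside 2.09 and 18.0. Of the 116 genes, 60 (51.7%) lay above the median of all listed genes, 10 (8.62%) lay in the top 10% of them, and 19 were under 1 CPM per kilobase. On either side of 1 CPM per kilobase, 10.6% of all listed genes lay below Slc16a13 (0.890) and 14.0% below Slc1a4 (1.12). The 116 genes together held 1.55% of the CPM of the listed genes. The summed level was uneven. The 3 most abundant genes, Slc27a2, Slc38a3 and Slc38a4, held 46.0% of the members' summed CPM per kilobase, and the 10 most abundant held 65.6%. The genes come from 43 families, of which Slc38 (7 genes) gave 25.8% of the summed level and Slc27 (2 genes) 21.2%.

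**Figure D1:**
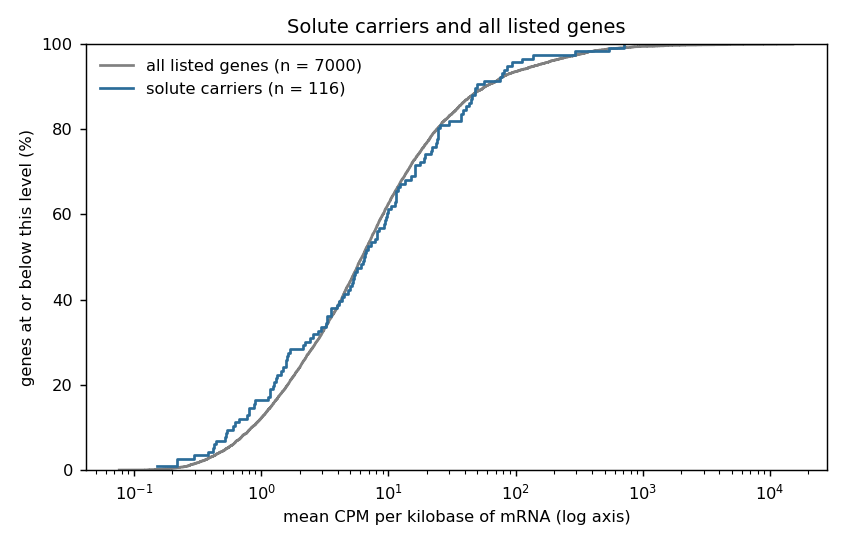
Share of genes (%) at or below each mean level, in CPM per kilobase of mRNA on a log axis, for the 116 genes with solute carrier symbols and for all 7000 listed genes. The curves lie close together, with medians of 6.45 and 6.19.

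Members were placed in substrate classes from general knowledge of their proteins, except 9 left unassigned and 2 that are no carriers. The classes were unequal in number and in level. Carriers of amino acids and peptides were the most numerous (27 genes) and held 33.4% of the summed level, but their median of 3.23 CPM per kilobase was below that of all listed genes. Organic ion carriers (21 genes) held 10.8% with a median of 9.81, and metal carriers (17 genes) held 9.58% with a median of 9.46. Inorganic ion carriers (14 genes) held 5.13%, and sugar carriers (11 genes) held 4.95% with the lowest class median, 2.55. These shares and medians cover listed genes only, and well-known hepatocyte carriers are missing from some classes.

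**Figure D2:**
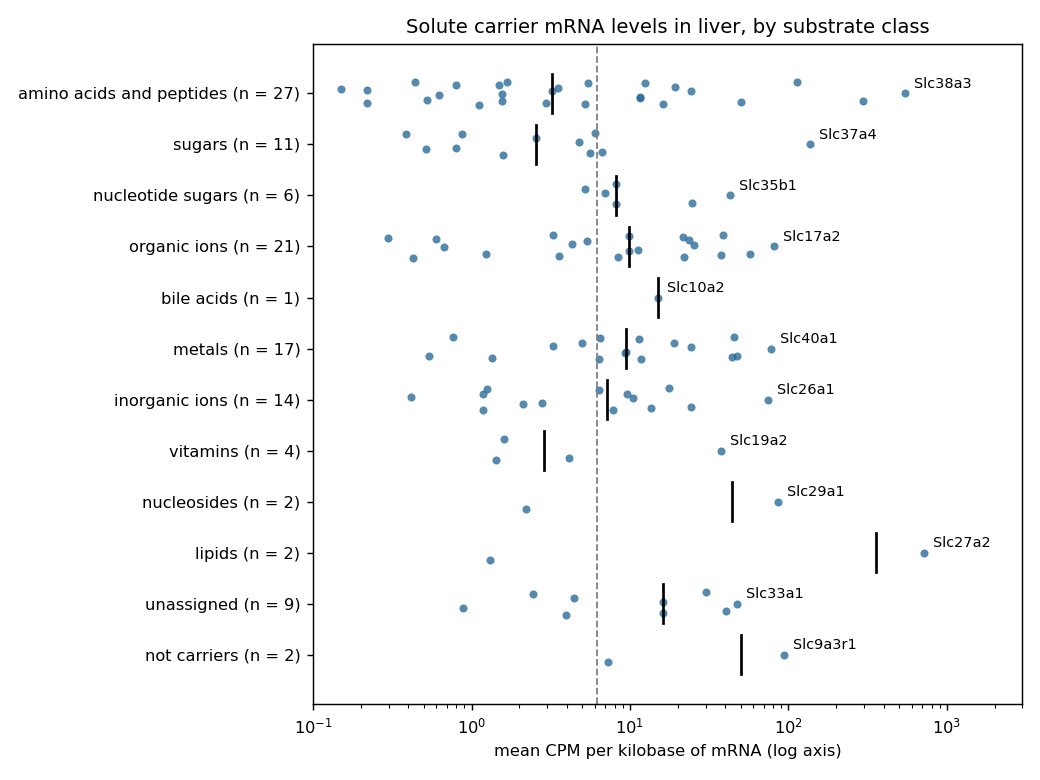
Mean level of each solute carrier in CPM per kilobase of mRNA (log axis), by substrate class. Points are genes, black bars are class medians, the dashed line is the median of all listed genes (6.19), and the most abundant gene of each class is named. Slc27a2 (715) lies farthest to the right, and the amino acid class runs from 0.150 to 543.

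**Figure D3:**
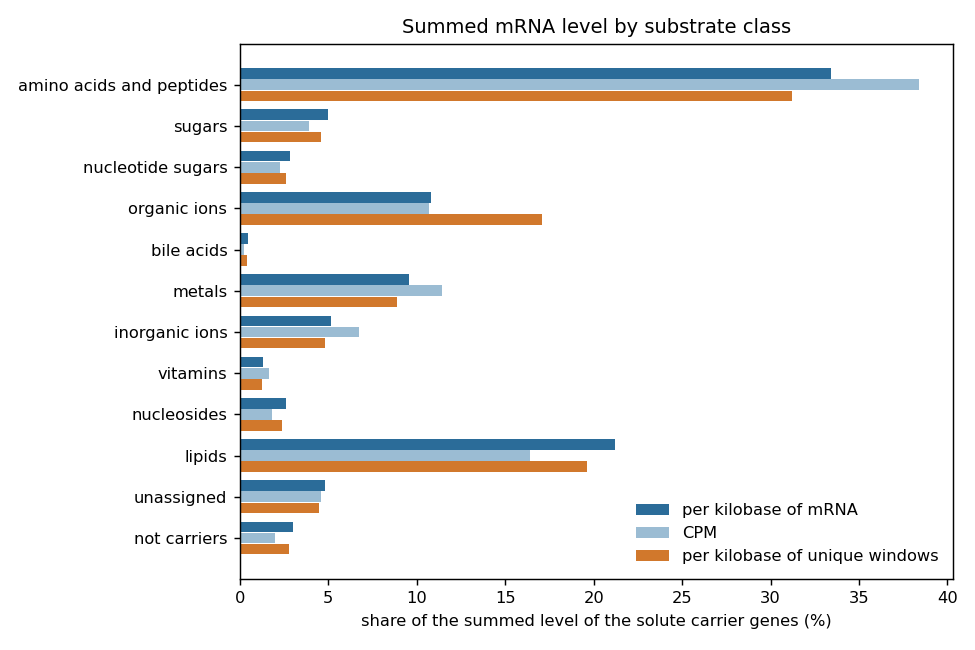
Share of the summed level of the 116 genes in each substrate class (%), per kilobase of mRNA, in CPM, and per kilobase of the mRNA windows that align to 1 place only. Amino acid carriers have the longest bar on each scale (33.4% per kilobase of mRNA), and organic ion carriers go from 10.8% to 17.1% when unique windows are used.

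Among the amino acid carriers, the 2 sodium-coupled neutral amino acid transporters Slc38a3 and Slc38a4 were the most abundant. Slc38a3, which carries glutamine, histidine and asparagine, had a mean of 1417 CPM, or 543 CPM per kilobase, and ranked 79th of all listed genes. The gene has 16 exons and spans chr9:107552970-107569705 (mm9, the build of every position given here). Slc38a4, at chr15:96825254-96886387, had 1161 CPM, or 295 per kilobase. They made up 48.2% and 26.2% of the class. Slc6a13, a carrier of GABA and taurine, was next with 243 CPM (113 per kilobase), followed by Slc7a2, the cationic amino acid transporter of hepatocytes, with 387 CPM (50.1 per kilobase). Slc38a10 had 24.4 CPM per kilobase, the taurine transporter Slc6a6 had 19.2 and Slc16a10, which carries aromatic amino acids, had 16.1. Slc17a8, a vesicular glutamate transporter, had 11.5 CPM per kilobase. Slc1a2, a glutamate transporter that in liver belongs to the hepatocytes around the central vein, had 143 CPM, but its mRNA of 11571 bases brought it to 12.4 per kilobase. At the lower end, Slc7a1, the cationic amino acid transporter of most other tissues, was the lowest of all 116 genes with 1.08 CPM (0.150 per kilobase), against 50.1 per kilobase for its relative Slc7a2. The CPM of Slc7a1 lies close to the authors' minimum for keeping a gene, and no error can be set on its rank. Slc38a1 had 0.218 CPM per kilobase, Slc7a14 had 0.219, Slc7a4 had 0.803, and Slc7a5, the light chain of a large neutral amino acid exchanger, had 0.624. Its alternative Slc7a8 had 0.525, and Slc7a7, the light chain of an exchanger of cationic and neutral amino acids, had 2.96. Slc38a9, an amino acid sensor of lysosomes, had 1.49 over a listed mRNA of 8913 bases. Its nearest annotated transcript has 3049 bases, so this level depends on the length used. Slc6a8, the creatine transporter, had 0.438. Of the 27 genes, 10 lay above the median of all listed genes.

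Among the listed sugar carriers, the highest level was that of Slc37a4, the glucose 6-phosphate translocase of the endoplasmic reticulum, which hands substrate to glucose 6-phosphatase. It had 287 CPM, or 138 per kilobase, which is 82.2% of the class, and lies at chr9:44205182-44211046. The next genes, Slc45a3 (6.67 CPM per kilobase), Slc50a1 (6.03), Slc2a8 (5.61) and Slc37a3 (4.78), were all close to or below the median of all listed genes. Slc2a4, the insulin-responsive glucose transporter of muscle and fat, had 0.871 CPM per kilobase. Slc5a1, the sodium-glucose cotransporter of the small intestine, was the lowest of the class with 0.384, and Slc5a3, the sodium and myo-inositol cotransporter, had 2.55. Only 2 of the 11 genes exceeded the median of all listed genes. Slc2a2, picked as well known in hepatocytes, is not among the listed genes and was not analysed here. The share, median and leading gene of this class therefore hold for the listed genes only, and are no measure of sugar transport in these livers.

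Nucleotide sugar carriers feed glycosylation and related reactions in the endoplasmic reticulum and Golgi apparatus. The 6 genes placed in this class had a narrower range, from 5.22 to 42.7 CPM per kilobase. Of them, 5 lay above the median of all listed genes. The class name does not hold for the substrate of every member. Slc35b1 was the highest, but that it carries nucleotide sugars is not established here. Slc35a3, which carries UDP-N-acetylglucosamine, had 24.7, Slc35d1 8.18, Slc35c2 8.12 and Slc35b4 6.95. The lowest was Slc35b3, which carries the sulfate donor PAPS, not a nucleotide sugar, into the Golgi apparatus.

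Among the organic ion carriers, Slc17a2 had the highest level, 241 CPM or 81.2 per kilobase. It is part of a run of related genes on chromosome 13, where Slc17a3 had 21.8 CPM per kilobase, Slc17a1, a urate and phosphate carrier, 5.37, and Slc17a4 21.5. The levels within this run were thus unequal. Slc22a7, an organic anion transporter of the sinusoidal membrane, had 38.9 CPM per kilobase. Slc47a1, which exports organic cations into bile, had 37.3, and Slc16a1, a lactate and ketone body transporter, had 25.2. Slc17a5, which exports sialic acid from lysosomes, had 11.2, the prostaglandin transporter Slco2a1 had 9.86, and of the choline transporter-like genes Slc44a1 had 9.81, Slc44a3 3.56 and Slc44a2 3.26. Slc18a2, the monoamine transporter of synaptic vesicles, was lowest with 0.297.

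Slc22a30, at chr19:8409861-8479601, ranked second in this class with 114 CPM (56.9 per kilobase), but this value may rest on a small part of its mRNA. The authors counted only reads that aligned to 1 mRNA with up to 2 mismatches. Every 50-base window of the annotated Slc22a30 mRNA was aligned with the same mismatch limit to 1 annotated transcript per gene. Of these windows, 18.5% had 1 place only, and 80.3% also aligned to Slc22a28. Whether the authors' mRNA set held Slc22a28 is not known here. The coding sequences of this pair were identical at 1459 of 1476 aligned bases (98.8%). These stretches are shown because they mark where reads of this pair can and cannot be told apart. The first 50 coding bases are the same in both genes, so that a read from them would be discarded if both were in the authors' mRNA set. At coding positions 628 to 677, the stretch with the most differences, the genes differ at 3 bases, in capitals, which is more than the 2 mismatches allowed. The stretch was not compared base by base with the other genes that share windows with Slc22a30, of which Slc22a29 shared 30.7% and Slc22a27 28.6%.

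Slc22a30 and Slc22a28, coding bases 1 to 50: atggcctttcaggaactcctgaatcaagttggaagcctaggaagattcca

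Slc22a30, coding bases 628 to 677: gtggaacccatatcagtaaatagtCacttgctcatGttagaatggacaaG

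Slc22a28, coding bases 628 to 677: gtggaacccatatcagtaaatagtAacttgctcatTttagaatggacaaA

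Divided by the unique windows alone, Slc22a30 came to 308 CPM per kilobase, the highest value of the organic ion class and above that of Slc38a4. Its level is therefore uncertain. The carnitine transporter Slc22a5 showed a smaller effect of the same kind. It had 50.2% unique windows, shared 48.1% with Slc22a21, and came to 8.39 CPM per kilobase of mRNA and 16.7 per kilobase of unique windows. A stretch that it shares base for base with Slc22a21, from coding base 47 to 96 in both genes, illustrates this.

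Slc22a5 and Slc22a21, coding bases 47 to 96: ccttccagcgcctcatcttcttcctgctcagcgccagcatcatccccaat

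Overlap with a neighbour on the opposite strand lowered the share of unique windows in other carriers, since windows were aligned to both strands. Slc6a9, a glycine transporter, had 56.9% unique windows and shared 43.1% of them with Ccdc24, all on the opposite strand. Slc3a1, the heavy subunit of a cystine and dibasic amino acid transporter, had 75.1% and shared 24.9% with Prepl, also on the opposite strand. The libraries were stranded, but the sources used here do not say whether strand was used in the alignment. Whether reads of these genes were discarded is therefore unknown. Elsewhere the loss of unique windows was small. All windows were unique in 77 of the 116 members, and over 95% were unique in 108.

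**Figure D4:**
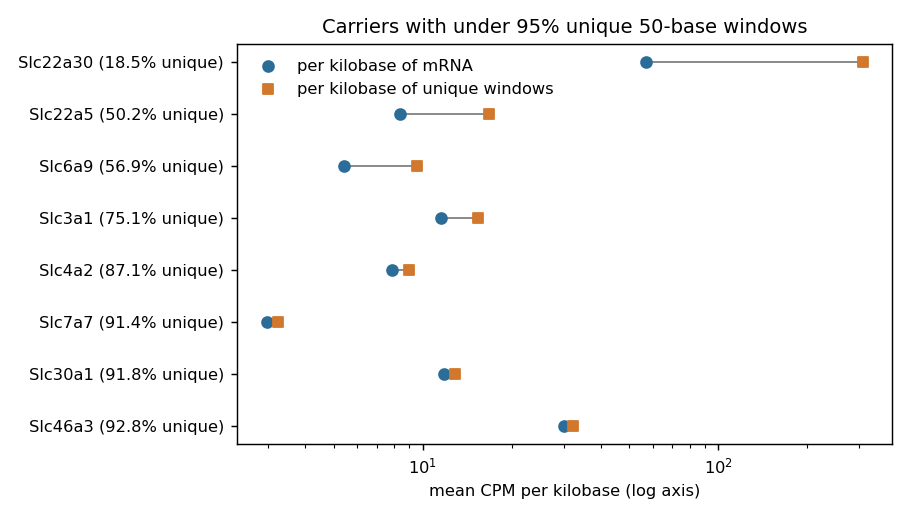
Mean level of the 8 carriers with under 95% unique 50-base windows, per kilobase of mRNA (circles) and per kilobase of unique windows (squares), on a log axis. Windows were aligned to both strands. Slc22a30 moves from 56.9 to 308 CPM per kilobase, and the other 7 genes move by less.

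The bile acid class had 1 listed member. Slc10a2, the apical sodium-dependent bile acid transporter, is known from the ileum and, in liver, from bile duct cells. It had 24.3 CPM, or 14.9 per kilobase, and lies at chr8:5085623-5105232. Of the bile duct markers Krt19, Krt7, Epcam and Spp1, only Spp1 was listed, at 16.5 CPM per kilobase. The sinusoidal bile acid carriers of hepatocytes, Slc10a1, Slco1b2, Slco1a1 and Slco1a4, are not among the listed genes and were not analysed here, so the low share of this class (0.442%) is no measure of bile acid transport in these livers.

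Carriers of metals had a broad middle. The iron exporter ferroportin, Slc40a1, was highest with 262 CPM (77.5 per kilobase). It lies at chr1:45964915-45982439. Slc39a14, which imports zinc and non-transferrin-bound iron, had 47.5 CPM per kilobase, the zinc importer Slc39a1 had 45.5, and the copper importer Slc31a1 had 44.3. Slc39a4, the zinc importer best known from the intestine, had 24.2. Slc39a8 (11.4) and the divalent metal importer Slc11a2 (6.35) were lower. Of the zinc exporters and vesicle transporters of the Slc30 family, Slc30a5 had 19.1 CPM per kilobase and Slc30a1, the plasma membrane exporter, 11.8. Slc41a2, a magnesium transporter, had 9.46. Slc39a2 was lowest with 0.540. Slc11a1, a metal transporter of macrophage phagosomes, had 3.28 CPM per kilobase, beside 5.15 to 74.8 for the 4 listed markers of Kupffer cells and macrophages. Of the 17 genes, 12 lay above the median of all listed genes.

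Translation of ferroportin mRNA is controlled by iron through an iron-responsive element, a hairpin near the start of the mRNA that iron regulatory proteins bind when iron is low. A search of all members' annotated mRNAs for this hairpin (a bulged C, 5 paired bases, the loop CAGTGN, and 3 further pairs below the bulge) found it in Slc40a1 alone. It lies at bases 103 to 129 of the mRNA, before the coding sequence, in an annotated transcript of the same length as the listed one, 3380 bases. It is shown with its loop in capitals, since the level of this mRNA does not by itself give the amount of ferroportin made. Of 22611 annotated genes, 20 (0.0885%) held such a hairpin in the longest isoform. No match was found in the annotated isoforms of the other members, which says only that this pattern was not in those sequences. An element with a further bulge or an unpaired base in the stem would be missed. Control by iron of the other members, Slc11a2 included, was not tested.

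Slc40a1 iron-responsive element: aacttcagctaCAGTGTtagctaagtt

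The carriers of inorganic ions were led by Slc26a1, a sulfate and oxalate exchanger of the sinusoidal membrane, with 241 CPM (74.8 per kilobase), which lies at chr5:109098897-109104588. The phosphate transporters Slc20a2 and Slc20a1 had 24.3 and 17.7 CPM per kilobase. The sodium bicarbonate cotransporter Slc4a4 had 13.5 and the potassium chloride cotransporter Slc12a7 had 10.5. The anion exchanger Slc4a2 had 7.86, and the sodium-proton exchanger Slc9a8 had 6.39. The sodium-calcium exchanger Slc8a1 was lowest per kilobase (0.417), with 7.75 CPM over a listed mRNA of 18599 bases. Its nearest annotated transcript has 2913 bases, so this place depends on the length used. The symbol rule does not keep out every mitochondrial protein, since Slc24a6, with 9.55 CPM per kilobase, encodes the sodium-calcium exchanger of mitochondria.

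In the smaller classes, 1 gene held most of the level. Slc27a2, which activates very long-chain fatty acids and aids their uptake, was the most abundant of all 116 genes with 1645 CPM (715 per kilobase). Its lead over Slc38a3 depends on the length used. The listed mRNA has 2301 bases and the nearest annotated transcript 2918. Per kilobase of the longest coding sequence, Slc38a3 had 933 CPM and Slc27a2 883. Slc27a2 ranked 62nd of all listed genes per kilobase of mRNA and lies at chr2:126378143-126413979. Its relative Slc27a1, known from muscle and fat, had 1.31 CPM per kilobase. The nucleoside transporter Slc29a1 had 85.4 CPM per kilobase, against 2.20 for the vesicular nucleotide transporter Slc17a9. Among the vitamin carriers, the thiamine transporter Slc19a2 had 37.5 CPM per kilobase, the ascorbate transporter Slc23a2 had 4.11, the riboflavin transporter Slc52a2 had 1.61 and the reduced folate carrier Slc19a1 had 1.44.

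For 9 members no substrate class was assigned. The highest was Slc33a1, which supplies acetyl-CoA to the endoplasmic reticulum, with 47.5 CPM per kilobase. Slc22a18 had 40.4, Slc46a3 30.0, Slc35f5 16.2 and Slc22a23 16.1. The lowest was Slc16a13 with 0.890, next to Slc16a11 (2.43) on chromosome 11. A further 2 symbols match the rule but name no carrier. Slc9a3r1, a scaffold protein that holds transporters at the apical membrane, had 93.3 CPM per kilobase and ranked 6th of the 116 genes. Slc4a1ap, an adaptor protein, had 7.31.

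Marker genes were looked up for cell types found in liver only, so they do not test the liver label. Of 6 hepatocyte markers, 3 were listed (Fabp1, Apoa1 and Serpina1a), at 15367, 7619 and 1230 CPM per kilobase. Alb, Ttr and Cps1 were not listed, which does not show that they were low. Markers of Kupffer cells (4 of 5 listed, 5.15 to 74.8 CPM per kilobase), sinusoidal endothelium (3 of 4, 9.27 to 16.4) and stellate cells (4 of 4, 1.67 to 98.3) were listed as well. For red cells 1 of 4 was listed (Alas2, 19.1) and for lymphocytes 1 of 3 (Ptprc, 3.93). The cell type behind a carrier's level was not tested. More cells of a type and more RNA per cell cannot be told apart.

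A carrier that is not listed is not shown to be low, since the deposited rows are ordered by the authors' comparison of the diets and not by level. The annotation has 324 protein-coding genes that match the symbol rule, of which 115 appear in the results under the same symbol and 209 do not. The other member, Slc52a2, is annotated under an older symbol. Of 27 carriers picked as well known in hepatocytes, 16 were listed. The other 11, among them Slc10a1, Slco1b2, Slco1a1, Slco1a4, Slco2b1, Slc2a2, Slc27a5, Slc3a2, Slc13a5 and Slc30a10, were not analysed here.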

How the data were processed

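Liver RNA of 4 mice was sequenced as stranded, ribosome-depleted libraries with 50-cycle single-end reads. The authors removed ribosomal reads, aligned the others with Bowtie to 1 RefSeq mRNA per gene (mm9, longest isoform) and kept reads with 1 alignment, allowing 2 mismatches. For coding sequence alignments they left out codons at both ends. Whether this applies to the deposited values is not stated. The deposited log2 CPM, made by the authors with edgeR, is 1 mean per gene over the 4 libraries, for genes that passed their minimum CPM. It was converted to CPM and divided by the deposited mRNA length. The other 3 columns hold the authors' own comparison of the diets (log2 fold changes, p-values and FDR) and were not used. The rows run in ascending order of those p-values and end at 7000, so a carrier can be missing for reasons other than a low level, and the listed carriers are not an unselected set. The listed genes hold 64.8% of the CPM total. Counts of each mouse were not analysed here, so depth, counting intervals and spread between mice are unknown, and the planned edgeR test of the diets was not run.

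Coordinates and mRNA sequences come from GENCODE vM1 on NCBIM37, the assembly of mm9, which is not the RefSeq set of the authors. Of the members, 115 were matched by symbol and 1 by synonym, and for 105 an annotated transcript differs from the listed length by at most 10%. For each member, all 50-base windows of the transcript nearest to the listed length were aligned with bwa 0.7.19 (up to 2 mismatches, no gaps) to 1 transcript per gene. The hairpin search found all of 200 planted elements in made-up sequences. These were built to the same pattern, so this checks the search itself and not how many real elements it would find. Python 3.11.15, pandas 2.3.3, Biopython 1.88 and matplotlib 3.10.9 were used.

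The members and lists were chosen with earlier results of these data known. The genes named are, in each class, the 5 with the highest level per kilobase and the lowest, the 27 hepatocyte carriers, and matches that are no carriers. Slc2a4, Slc7a5, Slc38a1, Slc11a1, Slc17a3, Slc17a4, Slc30a1, Slc24a6, Slc16a11, others below the 5 highest of a class, and the carriers with few unique windows were added after their values were seen. Alternatives for the class shares were CPM without length, a minimum of 5 CPM, omission of the most abundant gene and a second class for genes with more than 1 substrate. A few members are not reported here by name.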

Additional observations from a re-analysis of the deposited data

How the results depend on the processing

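With 1 mean per gene, omission of mice, other normalizations and other tests could not be run, no paired analysis was possible because no value belongs to a single mouse, and no error could be set on any share. Amino acid carriers held the largest share under each of the 6 alternatives tried. The median of the carriers over that of all listed genes stayed within 1.5 times its value under each of 3 alternatives. Class shares that moved by more than 1.5 times are given here. With CPM in place of CPM per kilobase, the share was 0.242% for bile acids and 1.96% for the matches that are no carriers. With genes moved to their second class, it was 2.21% for vitamins and 2.39% for unassigned genes. Without Slc27a2, lipids held 0.0494%. The following 2 settings were chosen after seeing the data. With unique windows as the length, organic ions held 17.1%, owing to Slc22a30. With the longest coding sequence as the length, metals held 15.0% and lipids 13.8%, and Slc38a3 had a higher level than Slc27a2. It stands in for the coding length of RefSeq proteins, which was not run. A minimum of 5 CPM moved no share by more than 1.5 times.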
